A study of Mus musculus with 6 samples.

Results

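The miRNAs that lie inside the mouse Hox gene clusters, miR-10a, miR-10b, miR-196a, miR-196b and miR-615, were followed in retinoic acid-differentiated N2a cells with and without RSL3. Every listed mature entry with one of these 5 names was taken, whichever arm of the hairpin it came from, which gave 6 of the 685 listed entries: mmu-miR-196a-5p, mmu-miR-196a-2-3p, mmu-miR-196b-5p, mmu-miR-10a-5p, mmu-miR-10b-5p and mmu-miR-615-3p, written below without the prefix for the mouse. The group was selected on the RSL3 against DMSO fold changes, in which miR-615-3p was the 1 miRNA called lower, and the other members were added for their place in the Hox clusters. Its fold changes are therefore given as a description, and no test on them supports the choice.

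N2a (Neuro-2a) is a mouse neuroblastoma line, and all 6 libraries came from N2a cells kept in 10 µM retinoic acid, with daily medium changes over 96 h, to give them a neuronal form. In 3 libraries the cells also received 5 µM RSL3 for 24 h, and in the 3 control libraries they received the solvent DMSO. RSL3 inhibits the lipid peroxidase GPX4 and is used to start ferroptosis, a form of cell death driven by lipid peroxidation. Cells without retinoic acid were not analysed here, so the comparison is of RSL3 within retinoic acid-treated cells and not of retinoic acid itself. The labels number the 3 libraries of each group but do not say whether they were separate cultures, so each p-value reflects the spread among these libraries alone, which may be technical.

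Hox genes encode the homeodomain transcription factors that give cells their position along the body axis, and retinoic acid is a classic inducer of their clusters. The miR-10 and miR-196 genes sit at conserved places in these clusters and are transcribed from the same strand as their Hox neighbours. miR-196 and miR-10 are known for repressing Hox mRNAs, and miR-615 is a mammalian miRNA carried in an intron of Hoxc5.

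The mature sequences, from RefSeq (GRCm38), are shown because the 6 entries hold 4 different seeds, and the seed decides which mRNAs a miRNA can pair with; capitals mark the seed, bases 2 to 8.
miR-196a-5p: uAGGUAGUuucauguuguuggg
miR-196b-5p: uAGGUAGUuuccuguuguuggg
miR-10a-5p: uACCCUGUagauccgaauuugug
miR-10b-5p: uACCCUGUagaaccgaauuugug
miR-615-3p: uCCGAGCCugggucucccucuu
miR-196a-2-3p: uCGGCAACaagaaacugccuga

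All 6 entries matched a sequence. The pair miR-10a-5p and miR-10b-5p shares its seed and 22 of 23 bases, and the single difference is U12A, with positions counted from 1 at the 5′ end of miR-10a-5p. miR-196a-5p and miR-196b-5p share 21 of 22 bases and differ by A12C. How reads that fit either member of such a pair were assigned is not given in the sources used here, so the split within each pair is less certain than its sum. miR-615-3p and miR-196a-2-3p each have a seed of their own, with no same-seed or one-base-shifted relative among the listed entries that matched RefSeq.

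The 6 precursors lie in all 4 Hox clusters (coordinates GRCm38, exon and intron status from GENCODE M21). Mir196b is on the minus strand at chr6:52230081-52230165, in an exon of some Hoxa9 transcripts and an intron of others. In the HoxB cluster, Mir196a-1 is at chr11:96265164-96265265 on the plus strand, 6192 bp upstream of Hoxb9 with no annotated transcript over it, and Mir10a is at chr11:96317165-96317274, also between transcripts and 993 bp upstream of Hoxb4. The HoxC cluster holds Mir196a-2 at chr15:102973350-102973434 and Mir615 at chr15:103014910-103015001. Both are transcribed from the plus strand, fall in introns of Hoxc5 and are 41.5 kb apart. Mir10b, at chr2:74726070-74726137 on the plus strand, falls in introns of both Hoxd3 and Hoxd4. The RefSeq table holds 6 miRNA genes between the first and the last Hox gene of the 4 clusters, and all of their listed mature entries belong to the 5 names.

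**Figure D1:**
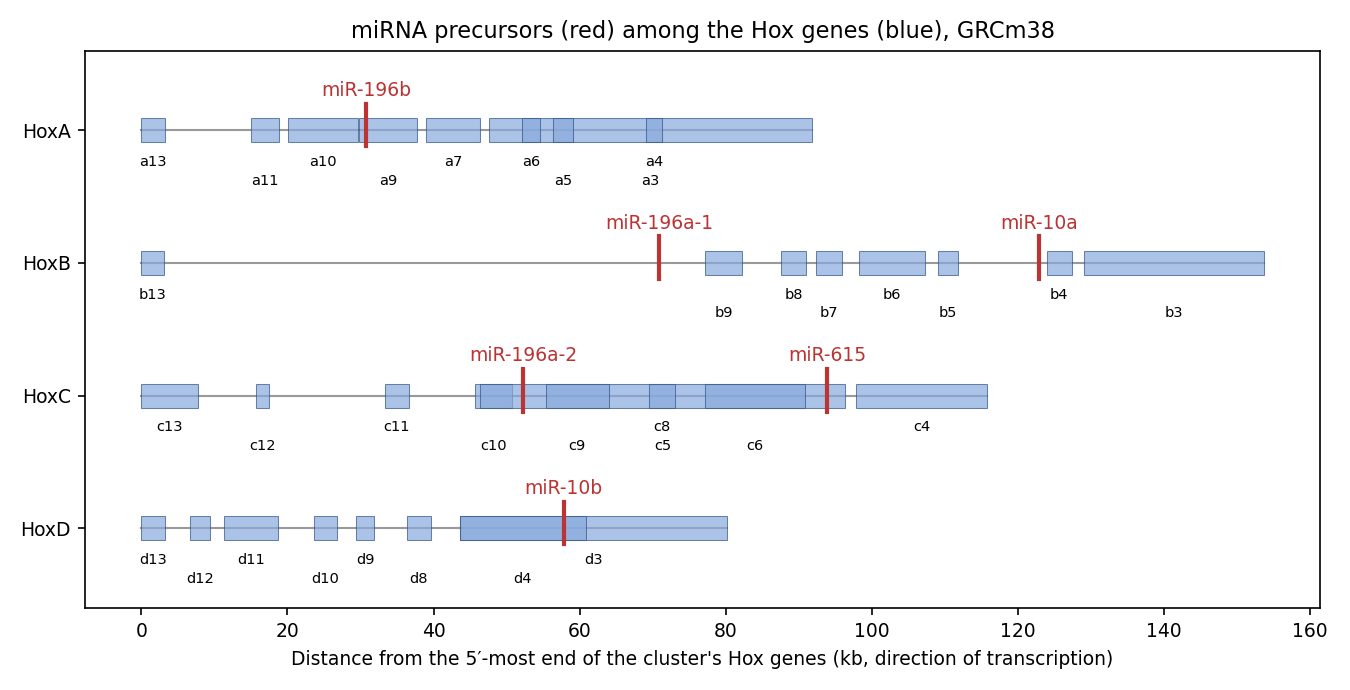
Position of the 6 miRNA precursors (red lines) among the Hox genes (blue boxes for paralogs 13 to 3, labelled below) in the 4 mouse Hox clusters; the x axis is the distance in kb from the 5′-most end of each cluster's Hox genes, in the direction of transcription. The miR-196 genes stand upstream of or within paralog 9, the miR-10 genes next to paralog 4, and miR-615 lies 41.5 kb downstream of miR-196a-2.

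The hairpin of miR-196a-2 is the one precursor with both arms listed, and its RefSeq sequence shows them in capitals, miR-196a-5p first and miR-196a-2-3p second.
Mir196a-2: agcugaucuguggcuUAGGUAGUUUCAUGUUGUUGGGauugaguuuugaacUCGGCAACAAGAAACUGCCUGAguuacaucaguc

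The same 5p sequence is also the product of Mir196a-1, so reads of miR-196a-5p can come from the HoxB or the HoxC locus. What each locus gave cannot be read from the listed entries. Reads of miR-196a-2-3p come from the HoxC locus. The other arms of these precursors were not analysed here.

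Levels are given in CPM, the read count of an entry scaled by its library, as the authors deposited them. The libraries held 3406276 to 6058006 miRNA reads, recovered from the steps of the deposited values, so that 1 read was worth 0.157 to 0.314 CPM. Of the 685 entries, 666 had at least 1 CPM in at least 3 libraries and were tested with limma on log2(CPM + 1), 2-sided, with Benjamini-Hochberg adjustment over all 666. All 6 Hox-linked entries passed that filter. The neuronal markers miR-9-5p, miR-124-3p, miR-128-3p, miR-132-3p and miR-7a-5p were detected in every library, with summed levels of 198309 to 272973 CPM in DMSO and 169884 to 218192 CPM in RSL3, most of it miR-7a-5p.

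The 6 entries spanned more than 2 orders of magnitude, and their order was the same in both groups. miR-196a-5p was the most abundant and ranked 86 among the 685 entries, followed by miR-615-3p at rank 156, miR-10b-5p at 318, miR-10a-5p at 366, miR-196a-2-3p at 476 and miR-196b-5p at 550. Each entry is 22 or 23 bases long, so these levels were compared without a length correction. Between neighbours in this order the libraries of a group did not overlap, except for miR-10b-5p and miR-10a-5p, whose ranges overlapped in both groups. The 6 entries summed to 1096 ± 122 CPM in the DMSO libraries and to 1064 ± 39.5 CPM in the RSL3 libraries (mean ± SD, n = 3 each).

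**Figure D2:**
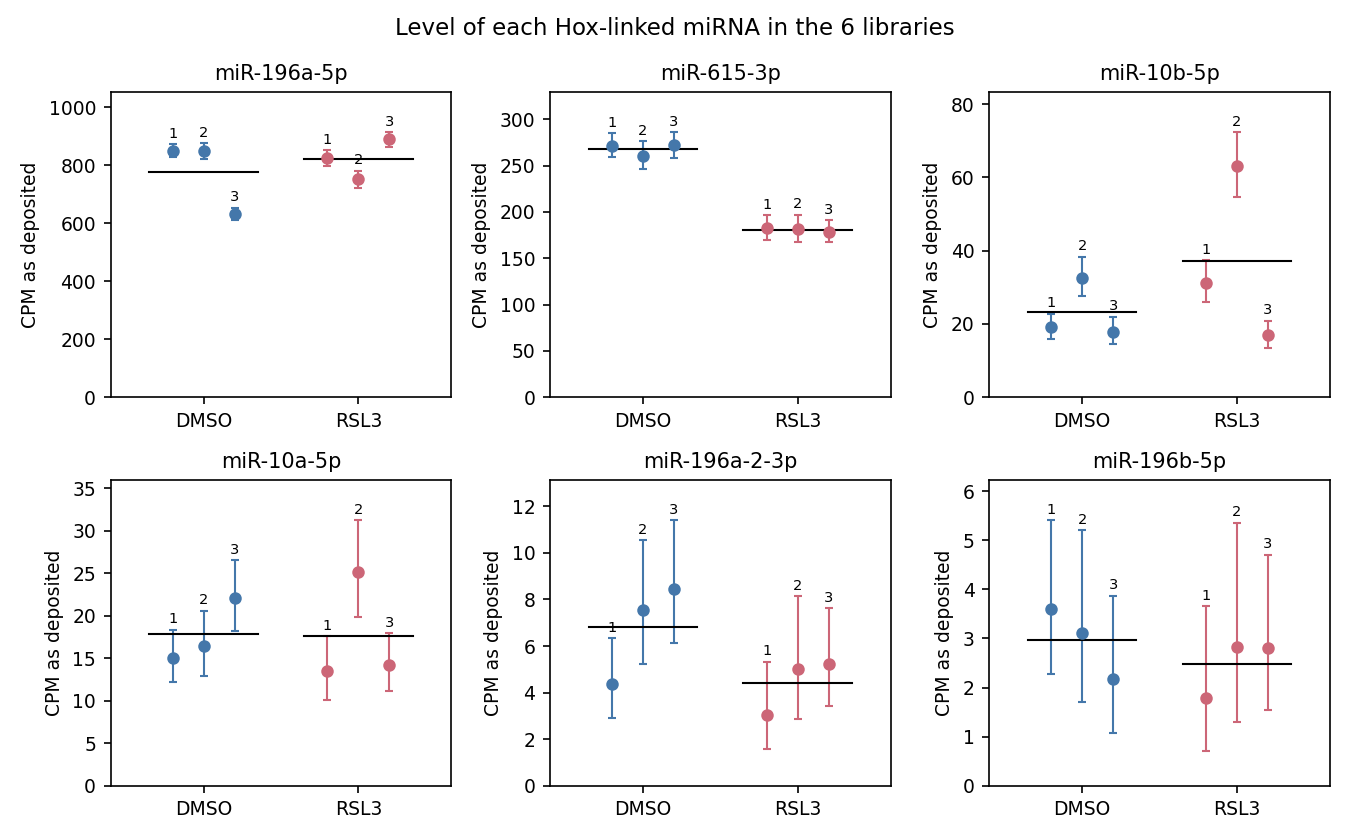
Level of each Hox-linked miRNA (y axis, CPM as deposited, from 0) in the 3 DMSO (blue) and 3 RSL3 (red) libraries; points are libraries with their replicate number, bars are 95% exact Poisson intervals of the reads (counting error only), and black lines are group means. The 3 RSL3 libraries of miR-615-3p sit between 179 and 182 CPM, below the DMSO libraries at 261 to 272 CPM, while the groups overlap for the other 5 entries.

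miR-615-3p, from the Hoxc5 intron, was read at 272, 261 and 272 CPM in DMSO libraries 1, 2 and 3, and at 182, 182 and 179 CPM in RSL3 libraries 1, 2 and 3. All RSL3 libraries were below all DMSO libraries, and within a group the values were close together. The group means were 268 ± 6.30 CPM in DMSO and 181 ± 2.01 CPM in RSL3 (SD, n = 3 each), a ratio of 0.675. The log2 fold change was -0.56 with a standard error of 0.11, and the adjusted p that selected it was 0.0343 (limma). In this fit the variance of each miRNA is drawn toward a trend over all tested miRNAs. The standard error is therefore wider than the spread of miR-615-3p itself, a pooled SD of 0.027 on the log2 scale. The levels of miR-615-3p rest on 579 to 1733 reads per library. The coefficient of variation between libraries was 2.35% in DMSO and 1.11% in RSL3, at or below the 2.67% and 3.75% that counting error alone gives for these reads. In bulk libraries, less of a miRNA per cell and a smaller share of cells that make it cannot be told apart.

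That miR-615-3p was the 1 member called lower, against 0.15% of all tested miRNAs called lower by the same test, only restates how the group was chosen. It was also the 1 member of 6 whose DMSO and RSL3 libraries did not overlap, beside 24.3% of all tested miRNAs. On the recovered reads, edgeR's quasi-likelihood test gave miR-615-3p an adjusted p of 0.0336 and called 0.3% of the 666 miRNAs lower. DESeq2 gave it 0.00217 and called lower 19 of the 433 miRNAs to which it gave an adjusted p, or 4.39%. The limma call was lost without DMSO library 1, 2 or 3 (adjusted p of 0.0782, 0.143 and 0.0808) or RSL3 library 3 (0.176), and with median centring (0.0817), limma without a trend (0.159) or a replicate block (0.352), with log2 fold changes between -0.58 and -0.53 in those fits. Among the sums of the cell type markers looked up, only that of the endothelial markers miR-126a-3p and miR-126a-5p separated the groups. It was 642 to 701 CPM in DMSO and 781 to 907 CPM in RSL3, with both markers detected in every library. The sum followed miR-126a-3p, with means of 614 CPM in DMSO and 802 CPM in RSL3, while miR-126a-5p went the other way, with 58.5 CPM and 42.5 CPM. Single markers of other types also separated the groups. In RSL3, miR-145a-5p (fibroblast and smooth muscle) and miR-133a-3p (muscle) were lower and miR-486a-5p (blood) was higher. Whether any of these markers has a part in the miR-615-3p values was not tested.

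miR-196a-2-3p, the passenger-side product of the other Hoxc5-intron hairpin, was read at 4.39, 7.55 and 8.46 CPM in DMSO libraries 1, 2 and 3, and at 3.05, 5.02 and 5.21 CPM in RSL3 libraries 1, 2 and 3. The groups overlapped, because DMSO library 1 was below RSL3 libraries 2 and 3. Its means were 6.80 ± 2.14 CPM and 4.43 ± 1.20 CPM (SD, n = 3 each), a ratio of 0.651 and a log2 fold change of -0.51 ± 0.28 (SE) that did not pass the test. With 12 to 43 reads per library, counting error alone gives coefficients of variation of 17.1% in DMSO and 24.5% in RSL3, against 31.4% and 27.0% observed.

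The ratio of these 2 HoxC products to each other is free of the library scaling. In DMSO libraries 1, 2 and 3 there were 61.9, 34.6 and 32.1 reads of miR-615-3p for each read of miR-196a-2-3p, and in RSL3 libraries 1, 2 and 3 there were 59.8, 36.2 and 34.3. As a share of the 2 together, miR-615-3p made up 97.5 ± 0.773% in DMSO and 97.6 ± 0.650% in RSL3 (SD, n = 3 each). Library 1 stood highest in both groups, and the difference between the group means was smaller than the spread within either group. This share also contains the values that chose miR-615-3p and is a description. With 12 to 43 reads of miR-196a-2-3p per library, a difference between the groups could be missed.

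**Figure D3:**
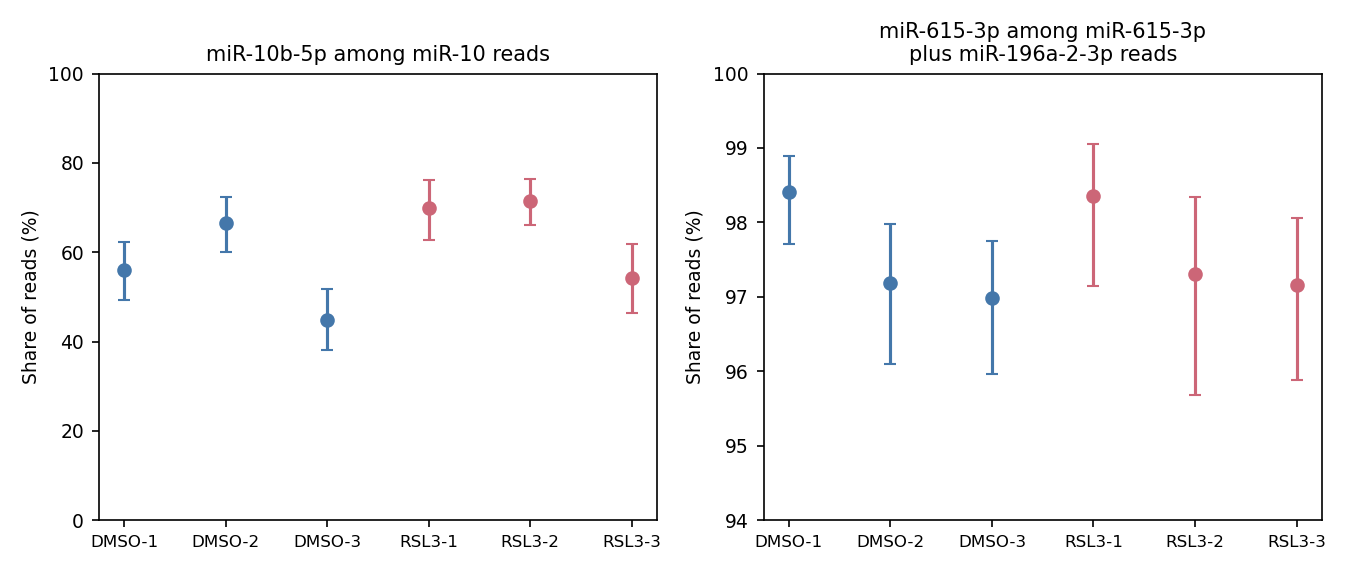
Share of reads (y axis, %) of miR-10b-5p among all miR-10a-5p and miR-10b-5p reads (left, axis from 0 to 100) and of miR-615-3p among miR-615-3p plus miR-196a-2-3p reads (right, axis from 94 to 100) in each DMSO (blue) and RSL3 (red) library; bars are 95% Wilson intervals, which cover counting error only. The miR-10b-5p share ran from 44.8% to 71.5%, and the miR-615-3p share from 97.0% to 98.4% with both groups in the same range.

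Against miR-196a-5p, the most abundant of the 6, miR-615-3p differed between the groups. Its share of the reads of these 2 entries was 24.2%, 23.5% and 30.1% in DMSO libraries 1, 2 and 3, and 18.1%, 19.5% and 16.7% in RSL3 libraries 1, 2 and 3. Every RSL3 share was below every DMSO share, with means of 25.9 ± 3.60% and 18.1 ± 1.37% (SD, n = 3 each). This share contains the values that chose miR-615-3p and is a description.

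miR-196a-5p itself, the main miR-196 guide strand, was read at 849.9, 849 and 632 CPM in DMSO libraries 1, 2 and 3. The RSL3 libraries 1, 2 and 3 gave 824, 751 and 889 CPM. DMSO library 3 was the lowest of the 6, and the other 5 lay between 751 and 889 CPM with the groups interleaved. The means of 777 ± 125 CPM and 821 ± 68.9 CPM (SD, n = 3 each) gave a ratio of 1.06 and a log2 fold change of 0.09 ± 0.13 (SE), which did not pass the test. With 2394 to 5423 reads per library counting error was 1.58% and 1.77%, well under the observed 16.1% and 8.39%. Without DMSO library 3 the log2 fold change was -0.05.

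miR-196b-5p, the HoxA product, was nearly absent beside its paralog. It was read at 3.60, 3.11 and 2.16 CPM in DMSO libraries 1, 2 and 3, and at 1.78, 2.82 and 2.81 CPM in RSL3 libraries 1, 2 and 3, which is 7 to 23 reads per library. The groups overlapped, with means of 2.96 ± 0.731 CPM and 2.47 ± 0.599 CPM (SD, n = 3 each) and a log2 fold change of -0.19 ± 0.26 (SE). The spread in both groups, 24.7% and 24.2%, was below the counting error of 25.9% and 32.6%. miR-196a-5p made up 99.6 ± 0.0416% of miR-196 reads in DMSO and 99.7 ± 0.0804% in RSL3 (SD, n = 3 each).

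The 2 arms of Mir196a-2 were set against each other as the log2 of the 5p over the 3p level. This ratio was 6.67 ± 0.62 in DMSO and 7.27 ± 0.36 in RSL3 (SD, n = 3 each), a change of 0.60 with a standard error of 0.33 that did not pass the test over 166 precursors with both arms tested. Since Mir196a-1 can add to the 5p reads, the ratio may not be that of 1 hairpin.

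miR-10b-5p, from the HoxD cluster, was the most variable member. It was read at 19.1, 32.6 and 17.9 CPM in DMSO libraries 1, 2 and 3, and at 31.3, 63.1 and 16.8 CPM in RSL3 libraries 1, 2 and 3. RSL3 library 2 was the highest and RSL3 library 3 the lowest of the 6, so the RSL3 group spanned the whole DMSO range. The means were 23.2 ± 8.17 CPM and 37.1 ± 23.7 CPM (SD, n = 3 each), with a log2 fold change of 0.51 ± 0.36 (SE) that did not pass the test. The coefficients of variation of 35.2% and 63.8% were far above the counting error of 9.26% and 8.99%. The fold change rested on RSL3 library 2: without it the log2 value was 0.04, and without RSL3 library 3 it was 0.96.

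miR-10a-5p, from the HoxB cluster, was read at 15.0, 16.4 and 22.0 CPM in DMSO libraries 1, 2 and 3, and at 13.5, 25.1 and 14.2 CPM in RSL3 libraries 1, 2 and 3. RSL3 library 2 was again the highest, and the other RSL3 libraries were below all DMSO libraries. The means of 17.8 ± 3.71 CPM and 17.6 ± 6.51 CPM (SD, n = 3 each) gave a log2 fold change of -0.05 ± 0.24 (SE), which did not pass the test. Its sign turned in 4 of 20 alternative fits. These were the fit of its sum with miR-10b-5p (0.29) and fits that left out 1 library. The fold change therefore has no direction here.

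miR-10b-5p made up 56.0%, 66.5% and 44.8% of miR-10 reads in DMSO libraries 1, 2 and 3, and 69.9%, 71.5% and 54.2% in RSL3 libraries 1, 2 and 3. Its means were 55.8 ± 10.8% and 65.2 ± 9.57% (SD, n = 3 each), and the groups overlapped. In DMSO library 3 the order of the pair was turned round, with 91 reads of miR-10b-5p and 112 of miR-10a-5p. RSL3 library 2, where both miR-10 entries were highest, was also the library with the fewest reads. Its summed level of the blood markers was 153 CPM, against 85.5 to 117 CPM in the other 5 libraries, with values for 2 of the 3 markers, miR-451a and miR-486a-5p. The same library was also highest for the summed liver or serum, leukocyte, endothelial and oligodendrocyte markers. It was not the highest for the summed neuronal, muscle, fibroblast and smooth muscle, epithelial or pluripotent markers. The neuronal sum was mostly miR-7a-5p, at 169263 CPM in RSL3 library 2 and not highest there. The other neuronal markers, miR-9-5p, miR-124-3p, miR-128-3p and miR-132-3p, were each highest in RSL3 library 2, at 5277.5, 221, 2386 and 501 CPM. The part of any of these in the miR-10 values was not tested.

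**Figure D4:**
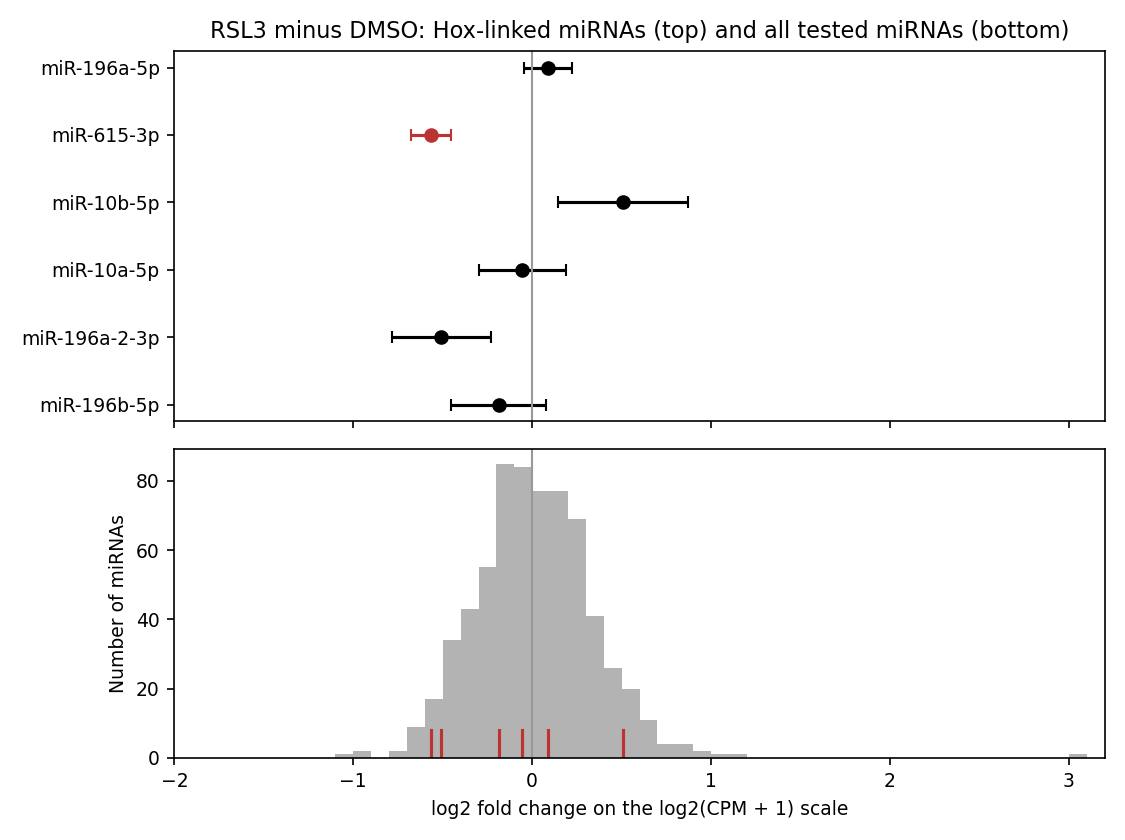
Log2 fold change, RSL3 minus DMSO, on the log2(CPM + 1) scale (x axis): above, the 6 Hox-linked miRNAs with standard errors (miR-615-3p in red); below, a histogram of all 666 tested miRNAs (y axis, number of miRNAs) with the 6 marked by red lines. miR-615-3p at -0.56 has the smallest standard error of the 6, and miR-10b-5p at 0.51 the largest.

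Across the 6 entries, 4 log2 fold changes were negative and 2 positive, with a median of -0.12, beside 332 negative, 334 positive and a median of 0.00 over all 666 tested miRNAs. None of the 5 members other than miR-615-3p reached an unadjusted p under 0.05 in limma, and none was called by edgeR. DESeq2 called none of miR-196a-5p, miR-10a-5p and miR-10b-5p and gave no adjusted p for miR-196a-2-3p and miR-196b-5p.

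The seed of miR-196 shares 6 bases in a row, shifted by a single position, with that of the let-7 family, whose most abundant listed member here was let-7c-5p. The sequence is shown so that the overlap with the miR-196 lines above can be read, with the seed again in capitals.
let-7c-5p: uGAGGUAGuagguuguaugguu

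There were 10 such let-7 and miR-98 entries, which together stood at 31863 ± 2832 CPM in DMSO and 27074 ± 1607 CPM in RSL3 (SD, n = 3 each). This was 41.0 times the mean level of miR-196a-5p in DMSO and 33.0 times in RSL3. All 10 had negative log2 fold changes, with a median of -0.21, beside 332 negative of all 666 tested miRNAs and a median of 0.00. Their sequences are much alike and the assignment of shared reads is not given, so the 10 may not be independent. None was called by limma or edgeR, nor by DESeq2 among the 9 to which it gave an adjusted p. At an unadjusted limma p under 0.05, 3 of the 10 were lower, beside 56 of all 666 tested miRNAs (8.41%). let-7c-5p stood at 11965 ± 1792 CPM and 9309 ± 632 CPM, a log2 fold change of -0.35. The seed of miR-10 overlapped in the same shifted way with 3 entries, of which miR-339-5p was the most abundant, at 50.1 ± 11.4 CPM in DMSO and 36.0 ± 5.56 CPM in RSL3.

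Pairing with the Hox mRNAs was looked up in the annotation, as sequence only, since mRNA levels were not analysed here. The letters paired by each seed were searched on the mRNA strand of the first 500 bases of the longest 3′ UTR of each protein-coding gene with a 3′ UTR of at least that length. ACTACCT, the match to miR-196, was present in 8 of 34 Hox genes (23.5%) and in 283 of 14292 genes overall (1.98%). Hoxa7 and Hoxa9 were among the 8. It shares 6 of its letters with the let-7 match CTACCTC, so an ACTACCT followed by C holds both.

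ACAGGGT, the match to miR-10, was present in 1 of 34 Hox genes, Hoxa3, and in 4.79% of all genes. The match to miR-615-3p, GGCTCGG, was in 0 of 34 and in 1.01% of all genes, and that to miR-196a-2-3p, GTTGCCG, was in 1 of 34, Hoxd3, and in 0.602% of all genes. These shares describe letters in a window of fixed length and carry no test.

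Over the full 3′ UTRs of all 39 Hox genes, the closest pairing of any of the 6 entries was that of miR-196a-5p with Hoxb8, the Hox mRNA best known as a miR-196 cleavage target. All 22 bases were paired, 21 by Watson-Crick pairs and 1 by a G:U pair at position 5 of the miRNA, which is why Hoxb8 is missing from the 8 genes with the exact letters. miR-196b-5p paired with the same site at all positions but 12, its difference from miR-196a-5p. The site is at chr11:96284888-96284909 (GRCm38, plus strand), bases 418 to 439 of the 845-base 3′ UTR, and capitals mark the letters across from the seed.
Hoxb8 site: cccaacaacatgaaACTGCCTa

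Hoxa9, whose transcription unit carries Mir196b, holds an exact seed match at chr6:52223900-52223921 on the minus strand, bases 323 to 344 of its 3′ UTR, with 15 Watson-Crick pairs to miR-196b-5p and 14 to miR-196a-5p.
Hoxa9 site: caaaaggaaagaaaACTACCTt

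After Hoxb8, the next closest ungapped pairing for miR-196a-5p had 19 of 22 bases paired (Hoxa10). Only 11 of these were Watson-Crick pairs and 8 were G:U pairs, and position 3, in the seed, was unpaired. The best for the other 4 entries, miR-10a-5p, miR-10b-5p, miR-615-3p and miR-196a-2-3p, had 17 or 18 bases paired, G:U pairs included.

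Other retinoid-responsive miRNAs were taken from general knowledge as a list, 42 entries of which 41 were tested. Of these, 21 had positive and 20 negative log2 fold changes, with a median of 0.01. None was called by limma or edgeR, and 3 were higher (7.32%) and 4 lower (9.76%) at an unadjusted limma p under 0.05, beside 8.86% and 8.41% of all 666 tested miRNAs. DESeq2 called miR-24-1-5p higher and miR-152-5p lower of the 32 list members to which it gave an adjusted p, beside 17 higher and 19 lower of 433 overall. These 2 are named because DESeq2 called them. The most abundant were miR-7a-5p, at 225023 ± 38694 CPM in DMSO and 181728 ± 26834 CPM in RSL3, and miR-21a-5p, at 32047 ± 2817 CPM and 39494 ± 3760 CPM (SD, n = 3 each). Neither passed the limma test, with log2 fold changes of -0.30 and 0.30.

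For the 4 members with a mean of at least 10 CPM, the entries with the most similar profile were found among 413 others of at least that mean, by the root mean square difference of centred log2(CPM + 1) values over the 6 libraries. The profiles share libraries and scaling, and likeness is a description of these 6 libraries. miR-615-3p was most like miR-301a-3p (0.08), miR-344f-3p (0.09) and miR-6540-5p (0.10), against a median of 0.33 over all candidates. miR-301a-3p stood at 14.1 ± 0.859 CPM in DMSO and 8.65 ± 0.439 CPM in RSL3, miR-344f-3p at 120 ± 7.95 CPM and 89.3 ± 5.92 CPM, and miR-6540-5p at 108 ± 4.39 CPM and 71.7 ± 6.62 CPM (SD, n = 3 each). All 3 were lower in every RSL3 library than in any DMSO library, and their adjusted limma p-values were 0.0954, 0.0954 and 0.0559, above the threshold of 0.05. Likeness to miR-615-3p selects for such a separation and for low p-values, so neither is a further result. Of all tested miRNAs, 24.3% had groups that did not overlap, in either direction.

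miR-196a-5p was most like miR-503-5p (0.06), miR-16-5p (0.07) and miR-322-3p (0.07), against a median of 0.26. These 3 share its low value in DMSO library 3, at 54.1 CPM for miR-503-5p, 859 CPM for miR-16-5p and 227 CPM for miR-322-3p, the lowest of the 6 libraries for each. The closest to miR-10a-5p was miR-451a (0.16), one of the blood markers above, followed by miR-466a-5p (0.17) and miR-410-3p (0.18), with a median of 0.37. Each of these 3 was highest in RSL3 library 2, as miR-10a-5p was. The nearest to miR-10b-5p was farther off: miR-6539 differed by 0.46, followed by miR-669b-3p at 0.48 and miR-187-3p at 0.49, with a median of 0.67.

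**Figure D5:**
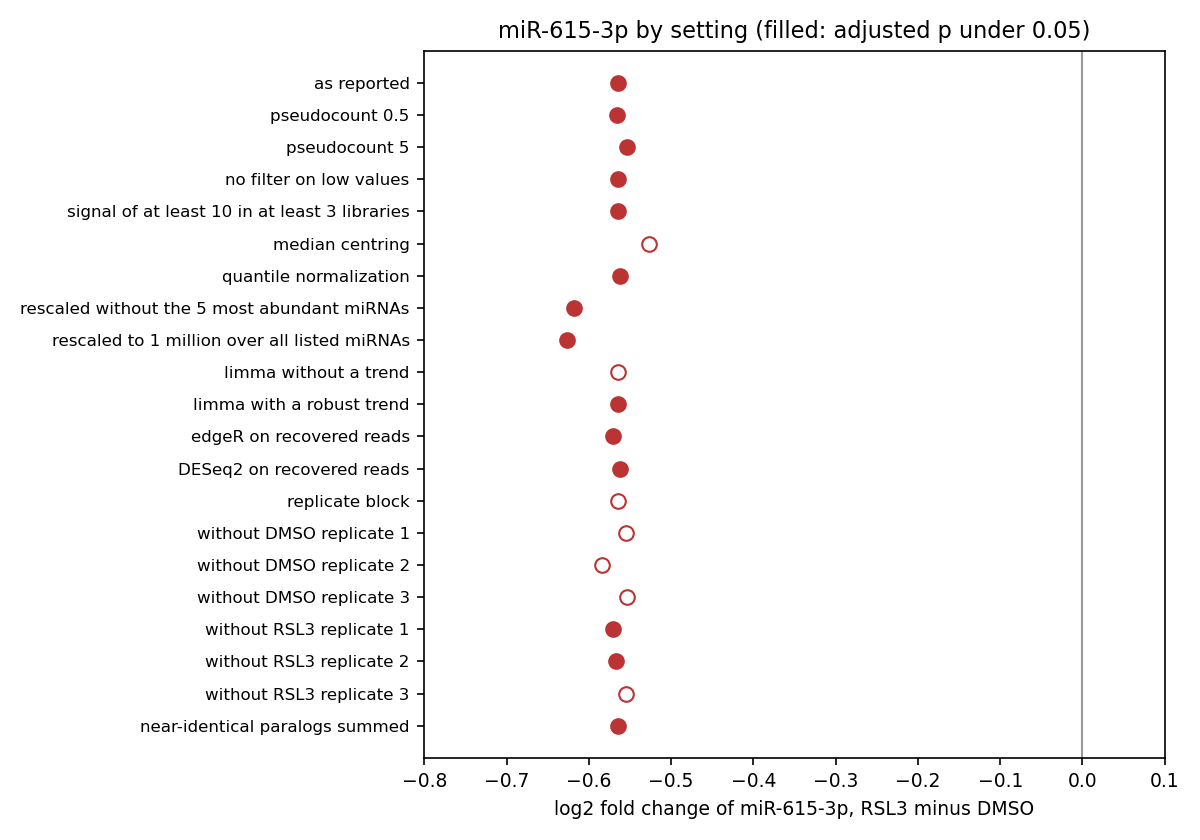
Log2 fold change of miR-615-3p, RSL3 minus DMSO (x axis), as reported and under each of the 20 alternative settings (y axis); filled circles have an adjusted p under 0.05 and open circles do not. All settings lie between -0.63 and -0.53, and 7 of the 20 alternatives are open.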

How the data were processed

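Small RNA libraries of 15 to 35 nt inserts were sequenced over 50 cycles, per the labels' protocols. cutadapt, Bowtie and edgeR on GRCm38 are named in the submitters' processing notes; their versions and order, the miRNA annotation and the handling of multi-mapping reads were not stated there. The deposited signal of each mature miRNA is called CPM by the authors. The library sums ran from 949375 to 1068892, so it is a scaled CPM, with the scaling not given. All values (100%, within 0.01 of a whole number) were whole multiples of 1 step per library, which gave the reads. The members and lists were chosen with earlier results of these data known.

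The main fit was limma 3.58.1 (R 4.3.3) with a variance trend on log2(signal + 1), for entries of at least 1 in at least 3 libraries, with adjusted p under 0.05 as the threshold; it was tested on simulated data. Alternatives were edgeR 4.0.16 and DESeq2 1.42.0, both run on recovered reads, other pseudocounts, filters, scalings, a replicate block and omitted libraries. Intervals are 95% and cover counting error only. Named are all members, the 3 most similar entries of each member averaging at least 10, the called and the 2 most abundant members of the retinoid list, and the most abundant seed relative. The main fit did not pair libraries by replicate number, and the labels do not say whether those numbers mark pairs. Python 3.11.15 was used for the rest.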

Additional observations from a re-analysis of the deposited data

How the results depend on the processing

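The log2 fold change of miR-615-3p stayed between -0.63 and -0.53 over 20 alternatives and past the threshold in 13, with adjusted p from 0.00217 to 0.352. It was not past the threshold with median centring (-0.53, adjusted p 0.0817) or limma without a trend (-0.56, 0.159), and the cause was not tested. Leaving out 1 library gave -0.58 to -0.55. The call was lost without DMSO library 1, 2 or 3 or RSL3 library 3. It was kept without RSL3 library 1 (adjusted limma p 0.0420) or RSL3 library 2 (0.0225). Each of these fits has fewer samples, and the cause of the losses was not tested. With a replicate block it was -0.56 (adjusted p 0.352). Same-numbered libraries had correlations of -0.35, -0.33 and -0.19 between their deviations from the group means. With 3 libraries per group such deviations constrain each other, so these values do not settle whether the numbers mark pairs. The labels do not say so either. The block left 1 miRNA called higher and 0 lower.

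The count called higher, 4 as reported, was 2 after rescaling every library to the same sum, 1 without a trend, 17 with DESeq2 and 1 to 14 without 1 library (14 without RSL3 library 2). The count called lower, 1 as reported, was 3 with a minimum of 10 CPM, 0 with median centring, 12 when rescaled without the 5 most abundant miRNAs, 0 without a trend, 2 with edgeR, 19 with DESeq2, and 0 to 12 without 1 library (12 without RSL3 library 1). The counts with no miRNA called lower come from limma, where 56 were lower at an unadjusted p under 0.05 with all libraries.

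None of the other 5 members passed the threshold under any alternative run, though DESeq2 gave no adjusted p for miR-196a-2-3p and miR-196b-5p. The sign changed in 4 of 20 for miR-10a-5p, 1 of 20 for miR-196a-5p and 1 of 19 for miR-196b-5p. For miR-10a-5p and miR-196b-5p this includes the fit summed with the paralog, at 0.29 and 0.09. With a minimum of 10 CPM miR-196a-2-3p, miR-196b-5p and the arm ratio gave no value. Of 72 levels and shares under other settings, 59 moved by less than 1 SD and 13 by more. Most of the 72 leave out 1 of 3 libraries, which cannot move a mean by 1 SD. The count is therefore no measure of stability. All 6 levels moved in both groups when rescaled without the 5 most abundant miRNAs, which changes the unit. Depth limits miR-196b-5p and miR-196a-2-3p most, at 7 to 43 reads per library.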
